A study of Mus musculus with 8 samples.

Results

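The genes described here encode ion channels of the sodium, calcium, HCN, TRP and acid-sensing families, read from arrays of 4 hypothalamic nuclei of the mouse. Their probes were chosen by name: every probe whose RefSeq accession gave a symbol starting with Scn, Cacna1, Cacna2d, Cacnb, Cacng, Hcn, Asic, Trpc, Trpm or Trpv was taken, whatever its signal, with Hcn and Trpv followed by a digit and symbols starting with Scnm left out. This gave 98 of the 55681 probes on the array, for 72 of the 20284 genes named on it and of the 75 genes in the annotation that have such a name. Scn3b, Scn9a and Trpc2 had no probe. Of the 72 genes, 51 had 1 probe, 16 had 2 and 5 had 3. The samples were the arcuate (Arc), ventromedial (VMH), dorsomedial (DMH) and lateral (LH) nuclei, cut by laser microdissection from female C57BL/6 mice (C57BL/6J in the methods) 3 months old, with 2 arrays for each nucleus and 8 in all. The study used 2 mice, and the labels do not say which arrays came from the same mouse. No group was treated and none carried a transgene or a deletion. Each p-value therefore rests on the spread between the 2 arrays of a nucleus, which may be partly technical. In the main fit that spread was pooled over the 4 nuclei and drawn toward a value estimated from all probes tested.

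Voltage-gated sodium channels carry the upstroke of the action potential, and their beta subunits set how fast they open, close and recover. Voltage-gated calcium channels turn depolarization into calcium entry, through a pore-forming alpha1 subunit whose surface level and kinetics depend on alpha2delta, beta and gamma subunits. HCN channels carry the inward current that opens on hyperpolarization, and acid-sensing and TRP channels are cation channels opened by protons, lipids, calcium, temperature or chemical ligands. In the hypothalamus such channels shape the firing of the neurons that control feeding, body temperature, sleep and hormone release.

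Across the arrays, 47.1% to 52.7% of the spots were well above background and no spot was saturated. The arrays of a nucleus correlated at r = 0.981 for Arc, 0.978 for VMH, 0.971 for DMH and 0.938 for LH, over the 28896 probes tested, and the second LH array correlated more closely with the second DMH array (0.954) than with the first LH array. Arc markers summed to 145906 to 155249 on the Arc arrays and at most 6017 elsewhere, VMH markers to 17676 to 19750 on the VMH arrays and at most 775 elsewhere, and DMH markers to 9792 to 12173 on the DMH arrays and at most 1084 elsewhere. The DMH arrays also held LH markers. Hcrt and Pmch, the peptide genes of LH neurons, had a summed signal of 62914 to 72193 on the DMH arrays and 123622 to 133754 on the LH arrays, against 286 to 312 on the Arc arrays and 3415 to 4623 on the VMH arrays. Cga, a pituitary gene, read 1425 on the first Arc array and at most 30.4 elsewhere. All 4 DMH markers were well above background on the first LH array and none on the second. Oligodendrocyte markers were higher in LH than in Arc for 10 of 10 genes, with a summed signal of 116940 to 124670 in LH and 12571 to 42345 elsewhere. The astrocyte sum was 87371 to 94905 in LH and 42682 to 59611 elsewhere, and 3 of 7 markers were higher in LH than in Arc. Of the 5 ependymal and tanycyte markers, 3 were lower in LH than in Arc, and their sum was 5489 to 5959 in Arc and 1543 to 2153 elsewhere. Among the 8 neuronal markers 4 were higher in LH and 3 in VMH than in Arc. In dissected tissue, fewer cells of a type and less RNA per cell cannot be told apart.

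**Figure D1:**
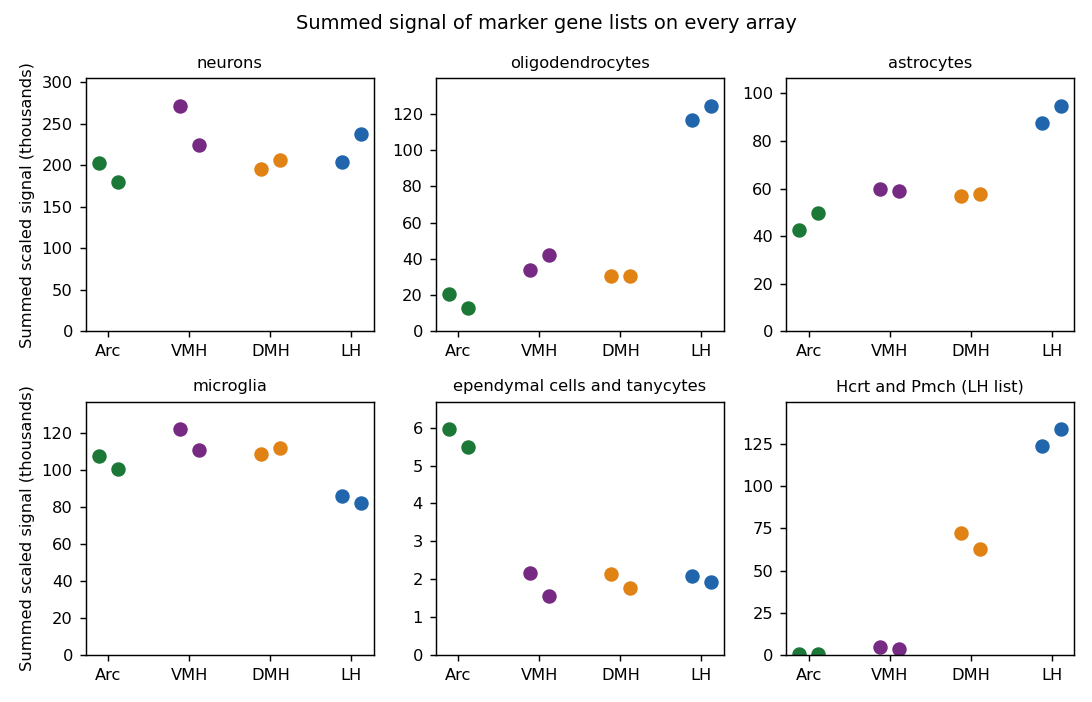
Summed scaled signal (in units of 1000, linear axis from 0) of 6 lists of marker genes on each array; each point is 1 array and the 4 nuclei are on the horizontal axis. The oligodendrocyte and astrocyte sums were highest on the 2 LH arrays, the ependymal and tanycyte sum on the 2 Arc arrays, and Hcrt and Pmch were high on the DMH as well as the LH arrays.

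Signals are given below as scaled signal, the processed intensity of a probe after each array was brought to a common 75th percentile. A probe was tested if both arrays of some nucleus read it well above background. This held for 72 of the 98 channel probes (73.5%), covering 54 genes. It held for 64.4% of the probes given a gene symbol and for 51.9% of all probes. Of the channel probes, 59 were well above background on all 8 arrays. The 18 genes with no tested probe included Asic3, Asic5, Cacna1f, Cacna2d4, Hcn4, Scn10a, Scn11a, Scn4a, Scnn1b, Scnn1g, Trpc5os, Trpc6, Trpc7, Trpm8, Trpv1, Trpv3 and Trpv5. Differences are log2 differences of nucleus means from the limma fit, with the standard error (SE) and a p-value adjusted by Benjamini-Hochberg over all probes tested, and a probe is called where this p is under 0.05.

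Calls among the channel probes were most frequent between LH and Arc and between VMH and Arc. In the F-test among the 4 nuclei 18 of the 72 channel probes were called (25%), beside 8.34% of all probes, and in at least 1 of the 6 pairwise comparisons 29 were called (40.3%), beside 13.6% of all probes. The median difference between the highest and the lowest nucleus was 1.06 on the log2 scale for the channel probes and 0.65 for all probes. LH against Arc held the most calls, 19 of 72 beside 9.34% of all probes, with 14 higher in LH (beside 6.02%) and 5 higher in Arc (beside 3.33%). VMH against Arc gave 14 calls beside 5.92%, with 10 higher in VMH (beside 3.52%) and 4 higher in Arc (beside 2.4%). LH against VMH gave 12 beside 5.28%, with 5 higher in LH (beside 3.04%) and 7 higher in VMH (beside 2.24%), a split that was 7 to 6 with normexp background correction and 6 to 6 with quantile normalization. DMH against VMH gave 5 calls beside 2.04%, with 3 higher in DMH (beside 0.945%) and 2 higher in VMH (beside 1.1%). DMH against Arc gave 2 beside 1.26%, with 1 higher in DMH (beside 0.727%) and 1 higher in Arc (beside 0.533%). LH against DMH gave 2 beside 0.924%, both higher in LH (beside 0.664%), and 0 were higher in DMH (beside 0.26%). Only 5 probes differed in the same direction from all 3 other nuclei (beside 2.42% of all probes): both Cacna2d1 probes, higher in VMH (beside 0.54%), 1 Scn1a probe and Scn4b, higher in LH (beside 0.484%), and Trpm6, lower in Arc (beside 0.457%). These counts rested on few arrays. Leaving out 1 array at a time gave between 5 (without the first Arc array) and 26 (without the second LH array) F-test calls, and a fit of only the Arc and LH arrays left 5 of the 19 calls between them.

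**Figure D2:**
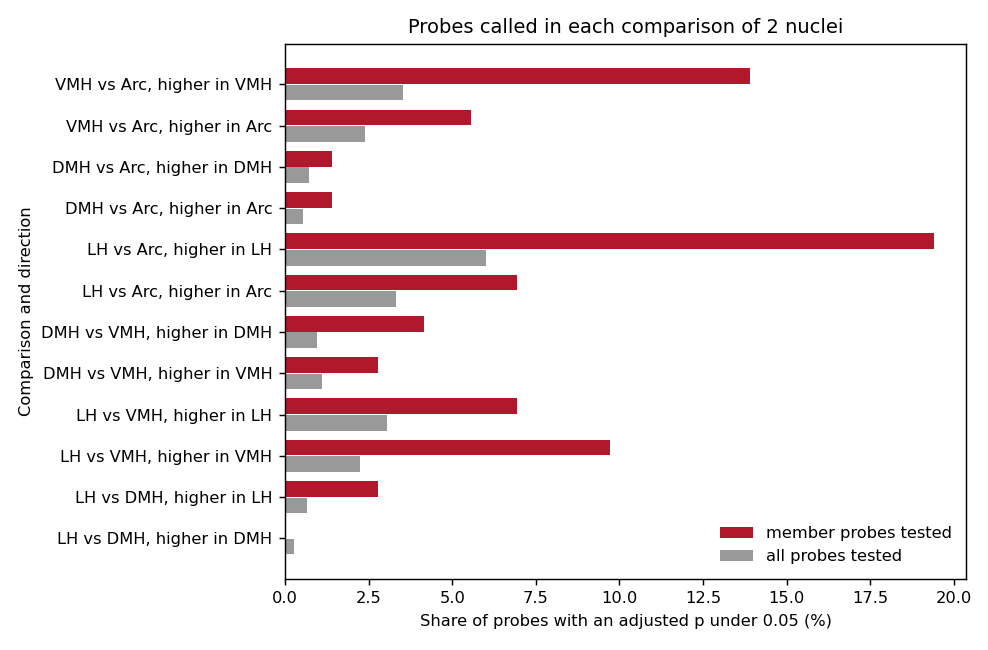
Share of probes called (%, axis from 0) in each pairwise comparison and direction, for the 72 channel probes tested (red) and all 28896 probes tested (grey). The red bar is longer in each comparison except LH lower than DMH, where no channel probe was called.

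**Figure D3:**
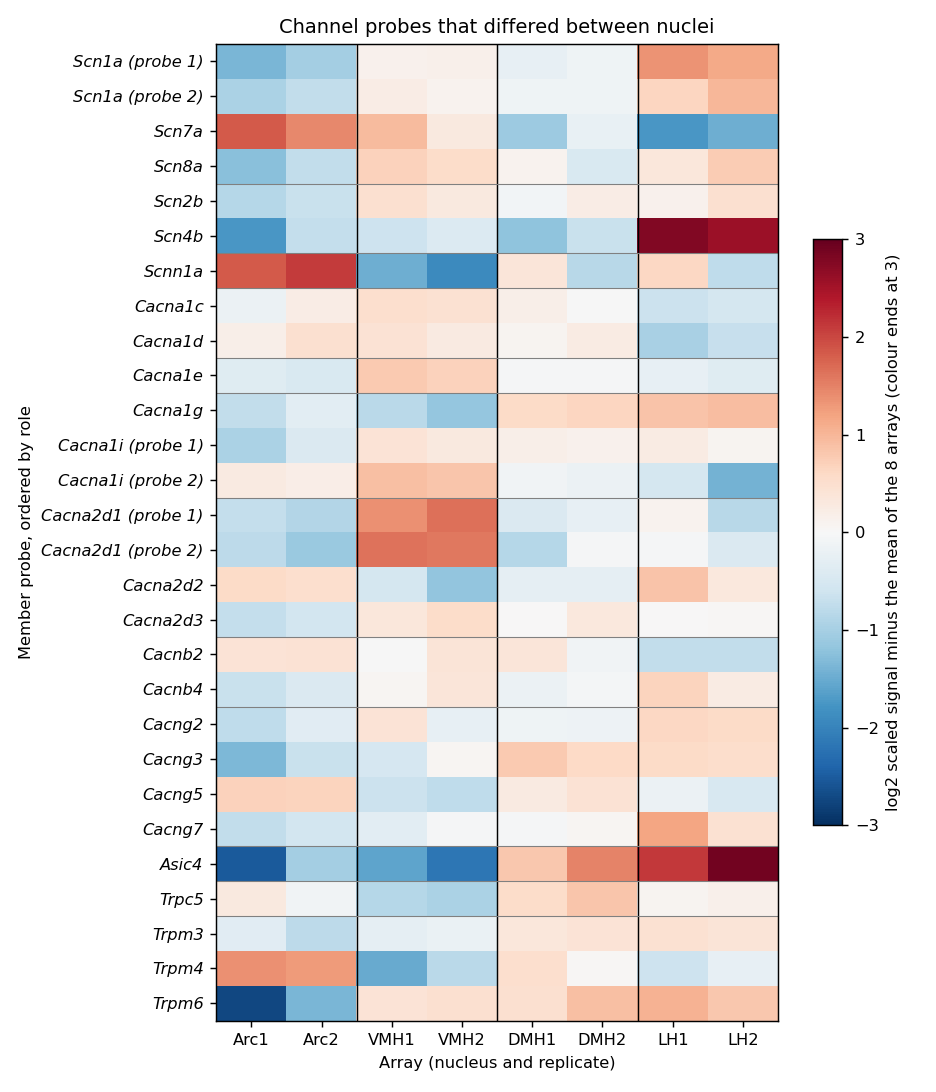
Log2 scaled signal of the called channel probes reported here on the 8 arrays, each minus the mean of its own 8 arrays, ordered by role; red is above and blue below that mean, and the colour scale ends at 3. Scn4b and Asic4 are red in LH, both Cacna2d1 probes in VMH, and Scn7a, Scnn1a and Trpm4 in Arc.

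Among the pore-forming sodium channel subunits, Scn1a was highest in LH and lowest in Arc. Scn1a encodes the sodium channel alpha subunit known for sustaining fast firing in inhibitory neurons. Its first probe (A_55_P2138761) gave 469 and 602 in Arc, 1340 and 1362 in VMH, 1023 and 1127 in DMH, and 3124 and 2692 in LH. Each nucleus stood apart from the others with no overlap on this probe. LH exceeded Arc by 2.45 on the log2 scale (SE 0.21, adjusted p = 0.00192) and DMH by 1.43 (adjusted p = 0.0404), and was 2.15-fold above VMH (adjusted p = 0.0338). VMH exceeded Arc by 1.35 (adjusted p = 0.0154). The second probe (A_55_P2138769) gave 410 and 474 in Arc, 922 and 849 in VMH, 724 and 727 in DMH, and 1233 and 1577 in LH, the same order. On it LH exceeded Arc by 1.66 (SE 0.21, adjusted p = 0.00562) and VMH exceeded Arc by 1.00 (adjusted p = 0.0408). The LH-Arc difference of the first probe passed whichever array was left out (adjusted p up to 0.0189). That of the second was lost without the first Arc array (0.0546). VMH over Arc was lost without any Arc or VMH array (up to 0.12) and on the second probe also without either DMH array (up to 0.249). LH over DMH was lost without any Arc, VMH or DMH array (up to 0.221), with the replicate block and with the percentile over probes detected on all arrays. LH over VMH was lost without any array but the second LH array (up to 0.171). Both were lost without scaling, without the filter and in the fit of only the nuclei compared.

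Scn8a, which encodes the alpha subunit concentrated at the axon initial segment and nodes, had 3 probes that did not give the same picture. Probe A_55_P2072339 gave 440 and 636 in Arc, 1707 and 1541 in VMH, 1134 and 769 in DMH, and 1345 and 1786 in LH. Arc was below every other array. VMH exceeded Arc by 1.62 (SE 0.30, adjusted p = 0.0255) and LH exceeded Arc by 1.55 (adjusted p = 0.0228); the first was lost without either Arc or either VMH array (up to 0.172), the second without either Arc array or the second LH array (up to 0.152). Probe A_55_P2072333 was also lowest in Arc, at 314 and 487 against 573 to 1099 elsewhere, and was not called (F-test adjusted p = 0.184). Probe A_55_P2057132 ranged from 189913 to 365304 with no order by nucleus (F-test adjusted p = 0.951).

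Scn7a, an atypical alpha subunit known for sensing sodium in body fluids rather than for carrying action potentials, ran the opposite way. It gave 311 and 235 in Arc, 167 and 107 in VMH, 41.2 and 74.3 in DMH, and 26.1 and 31.4 in LH. The DMH and LH arrays were not well above background, so that only a bound can be given. For such probes the brighter nucleus is set against the lowest signal measured well above background on the dimmer arrays, or the probe's own signal where that is higher. Scn7a was at least 2.65-fold higher in Arc than in LH (adjusted p = 0.00376) and at least 2.89-fold higher in Arc than in DMH (adjusted p = 0.037). VMH was at least 1.31-fold above LH (adjusted p = 0.0195). These p-values come from the signals as read; with dim signals raised to the lowest one measured well above background on their array, Arc over LH was still called (0.0322), but Arc over DMH (0.072) and VMH over LH (0.545) were not. Arc over DMH was also lost without any Arc, VMH or DMH array (up to 0.239), without the filter, with normexp, with the replicate block and with trended moderation, and VMH over LH without either VMH array (up to 0.125), with normexp and in the fit of those nuclei alone. The ependymal and tanycyte sum, given above, was also highest in Arc, and its part in the Scn7a signal was not tested. The Scn2a and Scn3a probes were not called. For the brightest Scn2a probe the spot of the first LH array was marked as an outlier and left out, so its LH value rests on 1 array.

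Among the sodium channel beta subunits Scn4b had the largest difference. Scn4b encodes a subunit linked to resurgent sodium current and fast firing. Its signal was 127 and 262 in Arc, 281 and 323 in VMH, 186 and 270 in DMH, and 2965 and 2558 in LH. Both LH arrays lay far above the other 6, which overlapped, and the first Arc value was not well above background. LH exceeded Arc by 3.92 (15.1-fold, SE 0.37, adjusted p = 0.00237), DMH by 3.62 (12.3-fold, adjusted p = 0.0162) and VMH by 3.19 (9.15-fold, adjusted p = 0.00677). LH over Arc passed whichever array was left out (up to 0.0129), LH over VMH was lost without the first VMH array (0.0589), and LH over DMH without either VMH array or the first DMH array (up to 0.107).

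Scn2b, which links covalently to alpha subunits and aids their delivery to the membrane, was lowest in Arc, with 4376 and 4929 there and 7434 to 11058 elsewhere. VMH exceeded Arc by 1.15 (SE 0.23, adjusted p = 0.0341) and LH exceeded Arc by 1.06 (adjusted p = 0.0348). Both calls were lost without any Arc, VMH or DMH array (up to 0.213), and that of LH also without the second LH array. On the LH arrays, where Scn1a and Scn4b were highest, the oligodendrocyte and astrocyte sums given above were highest as well. Of the 8 neuronal markers, 4 were higher in LH and 3 in VMH than in Arc, with median log2 differences of 1.04 and 0.85. The zona incerta and thalamus list summed to 11066 to 11362 in LH and 2786 to 5266 elsewhere, mostly through Pvalb, at 5855 and 7396 in LH and at most 430 elsewhere. Of its other genes Rora was higher in LH than in Arc by 0.93 (adjusted p = 0.0318), and Tcf7l2 (-0.64, adjusted p = 0.36) and Prkcd (0.39, adjusted p = 0.41) were not called. Pvalb is itself among the genes that the study reports as enriched in LH, so the sum does not mark neighbouring tissue alone. The part of these cell types and of neighbouring tissue in the channel signals was not tested.

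The promoters of Scn1a and Scn4b, the genes with a probe higher in LH than in each other nucleus, are shown to set their sequences side by side. Each is the 250 bases before the RefSeq start in GRCm38.p6, just outside the annotated gene, read 5′ to 3′ on the gene's strand, with any match to a searched motif in capitals.
Scn1a, chr2:66440838-66441087, minus strand: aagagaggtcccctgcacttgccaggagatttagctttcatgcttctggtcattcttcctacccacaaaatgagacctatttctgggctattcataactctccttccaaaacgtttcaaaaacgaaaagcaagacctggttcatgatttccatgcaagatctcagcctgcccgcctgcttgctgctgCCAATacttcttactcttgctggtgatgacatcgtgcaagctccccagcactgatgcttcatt
Scn4b, chr9:45138374-45138623, plus strand: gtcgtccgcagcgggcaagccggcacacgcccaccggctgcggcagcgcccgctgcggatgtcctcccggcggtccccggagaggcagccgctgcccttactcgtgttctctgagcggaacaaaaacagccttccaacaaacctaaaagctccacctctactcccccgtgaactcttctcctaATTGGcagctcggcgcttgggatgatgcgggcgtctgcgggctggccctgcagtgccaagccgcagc
The windows differed in base composition. That of Scn4b was 66% G and C with 23 CpG dinucleotides, and that of Scn1a was 46.8% G and C with 4, beside medians of 52.4% and 6 over 32851 windows of the same length. Both strands were searched for the TATA box as TATAAA (in 12.4% of all windows), the CCAAT box as CCAAT (33.8%), the GC box as GGGCGG (32.7%), an E-box as CACGTG (6.02%) and the steroidogenic factor element as CAAGGTCA (1.33%). In each gene the only match was 1 CCAAT, starting at -63 on the gene's strand in Scn1a and at -67 on the opposite strand in Scn4b. CCAAT was found in 18 of the 73 windows of channel genes (24.7%), so that a match is common in either set and describes these letters only.

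The one epithelial sodium channel subunit tested, Scnn1a, was highest in Arc. This family forms amiloride-sensitive channels known from kidney and lung epithelium. Scnn1a gave 261 and 313 in Arc and 19.4 to 113 on the other 6 arrays, none of them well above background. The probe entered the test through the Arc arrays alone, so its p-values set Arc against signals at background. Arc was at least 2.75-fold above VMH (adjusted p = 0.0117), a call lost without either Arc or either VMH array (up to 0.0865). Arc was at least 2.34-fold above LH (adjusted p = 0.0617) and at least 3.04-fold above DMH (adjusted p = 0.143), and neither was called. The Scnn1b and Scnn1g probes were not tested. As for Scn7a, the part of the tanycyte markers, which are also highest in Arc, was not tested.

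**Figure D4:**
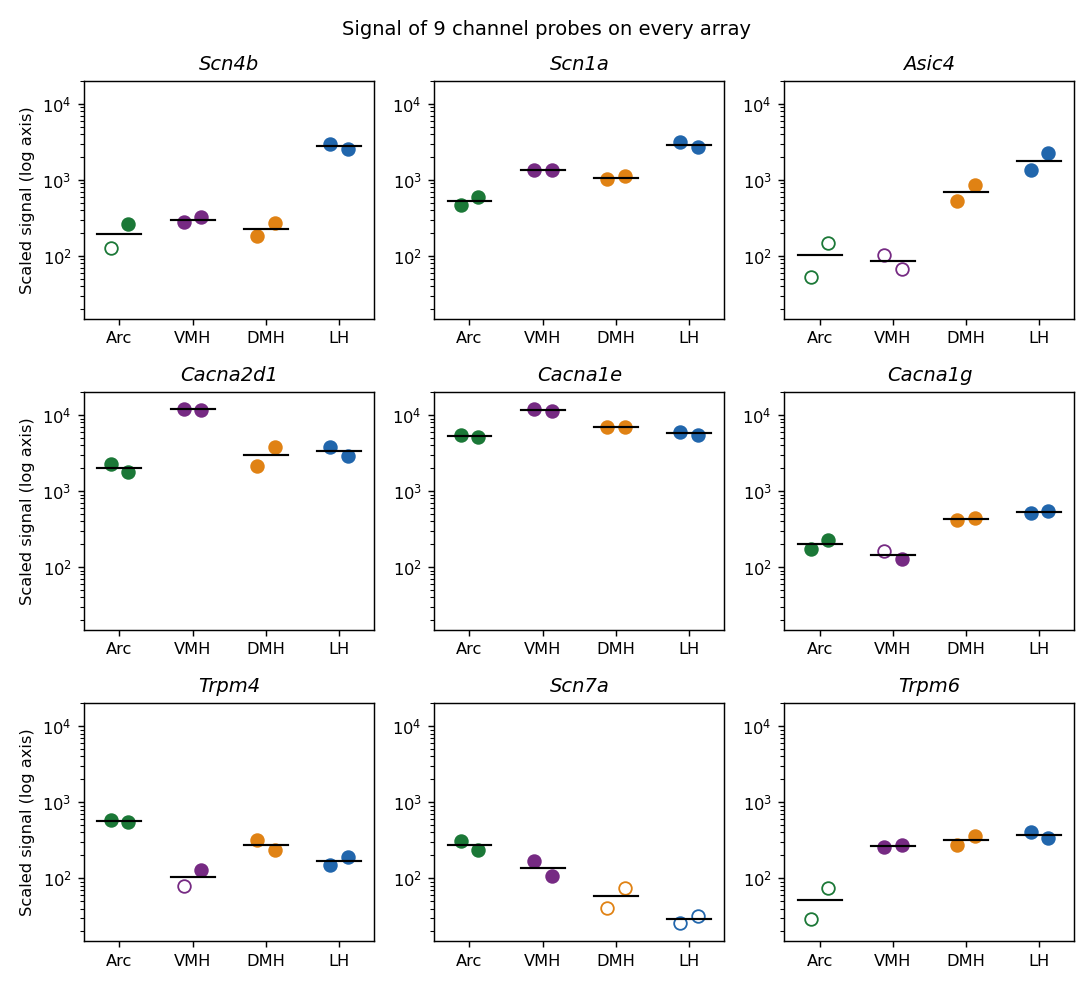
Scaled signal (log axis) of 9 channel probes on each array by nucleus; points are arrays, filled where well above background and open where not, and lines are the means of the 2 arrays. Scn4b, Scn1a and Asic4 were highest in LH, Cacna2d1 and Cacna1e in VMH, and Trpm4 and Scn7a in Arc, while Trpm6 was lowest in Arc.

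Of the high-voltage-activated calcium channel pores, the R-type subunit Cacna1e was higher in VMH than in Arc and LH, and 2 of the 4 L-type probes tested were lower in LH than in VMH (beside 2.24% of all probes called higher in VMH than in LH). Cacna1e gave 5455 and 5174 in Arc, 12076 and 11382 in VMH, 6912 and 6883 in DMH, and 5981 and 5520 in LH. Both VMH arrays were above the other 6. VMH exceeded Arc by 1.14 (SE 0.18, adjusted p = 0.0159) and LH was below VMH by 1.03 (adjusted p = 0.0261), while the difference from DMH was not called. The L-type subunit Cacna1d, which opens at relatively negative voltages and supports pacemaking, gave 957 and 1190 in Arc, 1154 and 1023 in VMH, 906 and 1015 in DMH, and 436 and 526 in LH on probe A_51_P251209. LH lay below all other arrays. It was 2.23-fold lower than Arc (SE 0.22 on the log2 scale, adjusted p = 0.0224) and 2.27-fold lower than VMH (adjusted p = 0.0297). The second Cacna1d probe was dim, at 130 to 268, and was not called (F-test adjusted p = 0.618). Cacna1c, the most widespread L-type subunit, was also lowest in LH, at 206 and 223 against 286 to 457 elsewhere, and was 2.1-fold lower than in VMH (adjusted p = 0.0373). That call passed in 5 of 12 other limma settings, with log2 differences from -1.18 to -0.49. It was lost with quantile normalization, normexp, trended moderation and the replicate block, without scaling or the filter, and in the fit of those nuclei alone. No L-type probe was called between LH and DMH.

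These calls were lost when single arrays were left out: Cacna1e between VMH and Arc without either Arc or either VMH array (up to 0.116) and between LH and VMH also without either DMH array (up to 0.15). Cacna1d against Arc was lost without either Arc array (up to 0.128), and both L-type calls against VMH without any array but the second LH array (up to 0.184). The P/Q-type subunit Cacna1a and the N-type subunit Cacna1b, which drive transmitter release at most synapses, had 3 tested probes, which spanned 0.34 to 0.54 and were not called. Cacna1s, the muscle L-type subunit, read 338 to 955 and was not called either.

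The T-type subunits, which open near rest and support burst firing, gave calls in different directions. Cacna1g on probe A_51_P466910 gave 172 and 230 in Arc, 163 and 127 in VMH, 422 and 445 in DMH, and 514 and 541 in LH. DMH and LH lay above Arc and VMH with no overlap, and the first VMH value was not well above background. LH exceeded VMH by 1.87 (SE 0.23, adjusted p = 0.00826) and Arc by 1.41 (adjusted p = 0.0142), and DMH exceeded VMH by 1.59 (adjusted p = 0.0208). LH over VMH was lost without the second VMH array (0.0543), LH over Arc without the first Arc array (0.106), and DMH over VMH without any VMH or DMH array (up to 0.139). The other Cacna1g probe was also brightest in LH, at 847 and 861, but was not called (F-test adjusted p = 0.222).

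The probes of Cacna1i, another T-type pore, were both called and differed in pattern. Probe A_66_P112371 gave 2700 and 2542 in Arc, 4173 and 3946 in VMH, 2071 and 1982 in DMH, and 1550 and 829 in LH. VMH was the highest and LH the lowest, 1.84 apart (SE 0.30, adjusted p = 0.0203), a call lost without either VMH array (up to 0.126). Probe A_55_P2079076 gave 3663 and 5235 in Arc and 7498 to 9389 on the other 6 arrays. Here VMH exceeded Arc by 1.04 (adjusted p = 0.0479), lost without any Arc, VMH or DMH array (up to 0.273), and LH was not the lowest. The probes of Cacna1h were not called.

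Cacna2d1 was the channel gene most plainly set apart in VMH. It encodes an alpha2delta subunit, the target of gabapentin, which raises calcium channels at the membrane. Probe A_55_P1988699 gave 2264 and 1799 in Arc, 12056 and 11695 in VMH, 2135 and 3812 in DMH, and 3787 and 2893 in LH. Probe A_51_P498720 gave 2195 and 1955 in Arc, 9374 and 11361 in VMH, 2665 and 3077 in DMH, and 3878 and 2042 in LH. On both probes the VMH arrays were above the other 6, with no overlap. On the first, VMH exceeded Arc by 2.56 (5.88-fold, SE 0.32, adjusted p = 0.00659), while DMH was 4.16-fold lower (adjusted p = 0.0247) and LH 3.59-fold lower (adjusted p = 0.0236) than VMH. On the second the folds were 4.98 over Arc (adjusted p = 0.00962), 3.6 over DMH (adjusted p = 0.0397) and 3.67 over LH (adjusted p = 0.0234). The call of this probe over DMH was lost without scaling or the filter and with quantile normalization. It was also lost with the replicate block and with the percentile over probes detected on all arrays. Over Arc, the first probe lost its call without the second Arc or the first VMH array (up to 0.0616) and the second without either Arc or either VMH array (up to 0.0767). Over DMH and LH both lost it without either Arc or either VMH array, and over DMH also without the first DMH array or, for the second probe, either DMH array (up to 0.228).

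The related subunits showed other patterns. Cacna2d3 was lowest in Arc, at 1652 and 1857 against 2752 to 3975 elsewhere, and VMH exceeded Arc by 1.08 (SE 0.21, adjusted p = 0.0303). Cacna2d2 on probe A_55_P2122879 was lowest in VMH, at 622 and 398 against 1349 and 1267 in Arc, 741 and 749 in DMH, and 1624 and 1114 in LH. VMH was 2.63-fold below Arc (adjusted p = 0.0382) and 2.7-fold below LH (adjusted p = 0.0374). All 3 calls were lost without any Arc, VMH or DMH array, and that of Cacna2d2 in LH also without the first LH array (up to 0.213). The other Cacna2d2 probe was bright and even, from 36096 to 62482, and was not called (F-test adjusted p = 0.316). Cacna2d4 was not tested.

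The intracellular beta subunits, which traffic the pore to the membrane, had 2 of 5 probes called in at least 1 pair (beside 13.6% of all probes) and 0 in the F-test. Cacnb2 on probe A_51_P283300 was lowest in LH, with 370 and 372 there, 820 and 836 in Arc, and 580 to 806 in VMH and DMH. LH lay below every other array and was 2.23-fold lower than Arc (SE 0.24 on the log2 scale, adjusted p = 0.0311), a call lost without any Arc or LH array (up to 0.161). The other Cacnb2 probe did not share the pattern, with 2595 and 1718 in LH and 1514 to 3195 elsewhere (F-test adjusted p = 0.387). Cacnb4, the beta subunit whose loss causes the lethargic mouse, was higher in LH (2089 and 1568) than in Arc (835 and 986), by 1.00 (SE 0.24, adjusted p = 0.0456), lost without any array but the second LH array (up to 0.246). Cacnb1 and Cacnb3 spanned 0.47 and 0.23 and were not called.

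Several Cacng genes encode regulators that carry AMPA receptors to synapses rather than calcium channel subunits, and 4 of the 8 tested were called in at least 1 pair (beside 13.6% of all probes), in both directions. Cacng3 gave 270 and 434 in Arc, 484 and 722 in VMH, 1195 and 1038 in DMH, and 1027 and 989 in LH. DMH and LH lay above Arc and VMH. LH exceeded Arc by 1.56 (SE 0.30, adjusted p = 0.0242), lost without the first Arc array (0.146). Cacng7 gave 6975 and 7951 in Arc, 9357 and 11338 in VMH, 11408 and 12194 in DMH, and 26338 and 16088 in LH. Its LH arrays were the highest, though unlike each other, and exceeded Arc by 1.47 (SE 0.28, adjusted p = 0.022), lost without either Arc array (up to 0.144). Cacng2, known as stargazin, was higher in LH (2342 and 2254) than in Arc (893 and 1205), by 1.15 (adjusted p = 0.0468), lost without any Arc, DMH or LH array (up to 0.257).

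Cacng5 was highest in Arc and lowest in VMH. It gave 2421 and 2371 in Arc, 958 and 879 in VMH, 1801 and 2006 in DMH, and 1320 and 1064 in LH. The arrays of the 4 nuclei did not overlap. VMH was 2.61-fold lower than Arc (SE 0.20 on the log2 scale, adjusted p = 0.0119) and LH 2.02-fold lower (adjusted p = 0.0269). The first was lost without any Arc or VMH array (up to 0.0943) and the second without any array but the first LH array (up to 0.156). Cacng8, also an AMPA receptor regulator, had the widest span of nucleus means, but it came from 1 array. It read 19.3 on the first DMH array and 2132 to 5069 on the other 7. The raw median pixel signal of that spot was 418, beside 2726 to 7123 on the other arrays, and the scanner software did not mark it as an outlier. DMH against VMH was -4.46 on the log2 scale and not called (adjusted p = 0.386), and was -1.07 without the first DMH array. Cacng1, Cacng4 and Cacng6 were not called.

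No HCN channel probe was called. All 8 arrays read Hcn4 as not well above background. Hcn2 read 1777 to 2974 on one probe and 193 to 625 on the other, the highest value on the second LH array, and Hcn3, at 662 to 1339, was lowest in VMH. F-test adjusted p-values were 0.584, 0.178 and 0.291. The widest difference was 1.18, for the dimmer Hcn2 probe in LH against DMH (adjusted p = 0.191).

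Among the acid-sensing channels Asic4 stood apart. Asic1 and Asic2 form proton-gated channels in neurons, whereas Asic4 is not known to be gated by protons on its own. Asic4 on probe A_55_P2185198 read 53.2 and 150 in Arc and 103 and 67.5 in VMH, none well above background, and 532 and 855 in DMH and 1339 and 2262 in LH. The nuclei fell into a low pair and a high pair with no overlap. LH was at least 14.2-fold above Arc (adjusted p = 0.00539) and at least 16.7-fold above VMH (adjusted p = 0.00819), and DMH at least 6.49-fold above VMH (adjusted p = 0.0438). DMH over Arc was at least 5.49-fold and not called (adjusted p = 0.0642). LH over Arc passed whichever array was left out (up to 0.0288), LH over VMH was lost without either VMH array (up to 0.0565), and DMH over VMH without any VMH or DMH array (up to 0.244).

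The other Asic4 probe (A_55_P2162747) followed the first except on 1 array. It gave 170 and 379 in Arc, 257 and 225 in VMH, 794 and 1205 in DMH, and 205 and 3049 in LH. The first LH array read with Arc and VMH, whereas on the first probe it read with the second LH array. The raw median pixel signal of that spot was 408, beside 3279 on the second LH array, and it was not marked as an outlier. This probe was not called (F-test adjusted p = 0.45). The called probes of Asic4, Cacna1g and Cacng3 read higher on the DMH and LH arrays than on the Arc and VMH arrays, and so did the LH peptide genes, of which 2 of 2 were higher in DMH and in LH than in Arc; the part of LH tissue in the DMH signals was not tested. Asic1 and Asic2 spanned 0.31 and 0.35 and were not called.

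In the TRPC family, channels opened downstream of receptors that activate phospholipase C, Trpc5 was called. It gave 362 and 271 in Arc, 163 and 151 in VMH, 431 and 522 in DMH, and 308 and 325 in LH. VMH was the lowest and DMH the highest, 1.59 apart (SE 0.23, adjusted p = 0.0185), a call lost without any VMH or DMH array (up to 0.132). Trpc1 and both Trpc4 probes were not called, and Trpc1 was not well above background on 4 of the arrays, both LH arrays among them.

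In the TRPM family Trpm4 was highest and Trpm6 lowest in Arc. Trpm4, a monovalent cation channel opened by intracellular calcium, gave 581 and 544 in Arc, 79.4 and 130 in VMH, 319 and 233 in DMH, and 147 and 192 in LH. Both Arc arrays were above the other 6, and the first VMH value was not well above background. VMH against Arc was -2.47 on the log2 scale (SE 0.31, adjusted p = 0.00656), and -2.16 with the first VMH value raised to the lowest signal measured well above background on its array. LH was 3.34-fold lower than Arc (adjusted p = 0.0176), and both calls were lost without either Arc array (up to 0.0605 and 0.115).

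Trpm6, a magnesium-permeable channel fused to a kinase, gave 29.2 and 74.9 in Arc, neither well above background, 258 and 270 in VMH, 272 and 365 in DMH, and 403 and 340 in LH. The Arc arrays were below all others. LH was at least 3.27-fold above Arc (adjusted p = 0.00853), DMH at least 2.78-fold (adjusted p = 0.0348) and VMH at least 2.33-fold (adjusted p = 0.0196). The LH call passed whichever array was left out (up to 0.0253). That of VMH was lost without the first Arc or either VMH array (up to 0.115) and that of DMH also without either DMH array (up to 0.204). Trpm3, a heat- and steroid-sensitive channel, was higher in LH (796 and 765) than in Arc (459 and 340) on probe A_66_P134073, by 0.98 (SE 0.22, adjusted p = 0.0359), a call lost whichever array was left out (up to 0.173). Its other tested probe and the probes of Trpm1, Trpm2, Trpm5 and Trpm7 were not called.

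No TRPV channel was called. Trpv2 was higher in LH, at 2833 and 2380 against 1339 to 2165 elsewhere (F-test adjusted p = 0.181), and Trpv4, an osmotically sensitive channel, read 159 to 373 (F-test adjusted p = 0.746). Trpv6, a calcium-selective channel, read 202 and 153 in VMH and, not well above background, 26 and 122 in LH (adjusted p = 0.209). The capsaicin receptor Trpv1 was not tested. The name rule also took in Trpc4ap, which encodes a Trpc4-associated protein and not a channel, and it was not called (span 0.39).

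**Figure D5:**
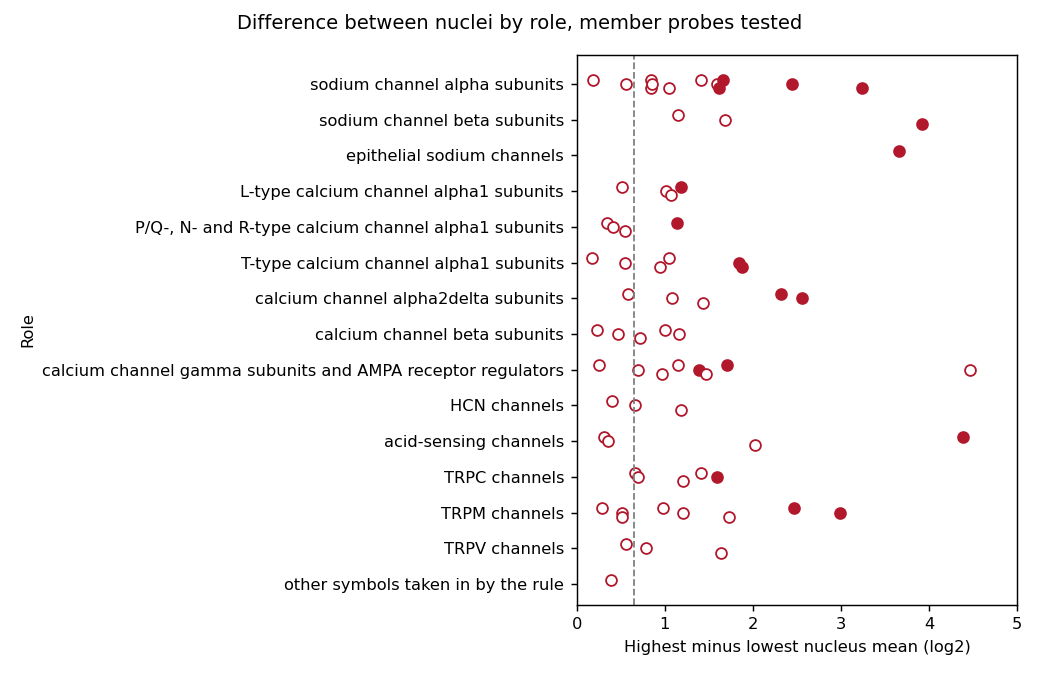
Difference between the highest and the lowest nucleus mean (log2) for the 72 channel probes tested, by role; each point is a probe, filled where called in the F-test, and the dashed line is the median of all 28896 probes tested (0.65). The widest called probes are Asic4 and Scn4b; the open point at 4.46 is Cacng8, from 1 low spot.

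Among the genes with more than 1 tested probe, Scn1a, Cacna1i and Cacna2d1 were called on each, while the probes of Scn8a, Cacna1d, Cacna1g, Cacna2d2, Cacnb2, Asic4 and Trpm3 differed in their call. The probes of most of these genes share 1 RefSeq accession, whereas those of Cacna2d1 and of Trpm3 carry different transcript accessions. A call is therefore of a probe and not of all transcripts of its gene.

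Genes whose products bind, anchor or act with these channels moved in part. Of 69 partner probes tested 12 were called in the F-test (17.4%, beside 8.34% of all probes), with a median span of 0.72. Among sodium channel partners, Fgf12, which binds the channel tail, gave 2452 and 2958 in Arc, 6225 and 5987 in VMH, 3716 and 4497 in DMH, and 6028 and 8628 in LH. Arc was below every other array; VMH exceeded it by 1.18 (adjusted p = 0.0405) and LH by 1.42 (adjusted p = 0.0174), and a dimmer Fgf12 probe was not called (F-test adjusted p = 0.206). Sptbn4, the spectrin that anchors channels at the initial segment, was also lowest in Arc, at 4778 and 5004 against 6592 to 11741 elsewhere, and LH exceeded Arc by 1.16 (adjusted p = 0.0205). Fgf11 was higher in LH than in Arc, by 1.32 (adjusted p = 0.0199), and both probes of Nedd4l, a ubiquitin ligase acting on sodium channels, were higher in VMH than in Arc, by 1.28 and 1.67 (adjusted p = 0.0172 and 0.00776).

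Among calcium channel partners Cnih3, an auxiliary protein of AMPA receptors, shared the VMH pattern of Cacna2d1. It gave 316 and 390 in Arc, 1897 and 2113 in VMH, 291 and 337 in DMH, and 436 and 316 in LH. VMH was above all other arrays and exceeded Arc by 2.51 (adjusted p = 0.00288). Gem, a small GTPase that inhibits calcium channels, was lowest in VMH: on its brighter probe it gave 1135 and 672 in Arc, 33.8 and 23.1 in VMH, 615 and 294 in DMH, and 202 and 78.3 in LH, with both VMH values below the dimmest signal measured well above background there. Stac2, an adaptor of L-type channels, ran from 28.5 and 25.5 in Arc to 369 and 535 in LH. Both Arc values were below the lowest signals measured well above background on those arrays (100 and 127). Cabp1, a calcium-binding regulator, exceeded Arc in LH by 1.61 (adjusted p = 0.00691). Pex5l, the HCN trafficking protein also called TRIP8b, gave 412 and 275 in Arc, 522 and 899 in VMH, 737 and 712 in DMH, and 1889 and 3125 in LH. LH exceeded Arc by 2.85 (adjusted p = 0.00593), while no HCN probe was called. Homer1, a scaffold that binds TRPC channels, was higher in VMH than in Arc on 2 of its 4 tested probes, by 2.16 (adjusted p = 0.0033) and 1.46 (adjusted p = 0.0293), and was not called on the other 2, the brightest among them (0.94, adjusted p = 0.19). No acid-sensing channel partner was called.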

How the data were processed

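RNA of laser-microdissected nuclei was amplified, labelled and hybridized to 1-colour Agilent mouse arrays, all on 1 slide. The labels name Cy3 and the labelling protocol Cy5; the files hold the red channel. Per the labels, signals were extracted with Agilent Feature Extraction 11.5.1.1, whereas the file headers name 10.7.3.1. The authors deposited processed signal intensity per spot, already background-subtracted, and a table of all arrays. From these, spots marked as outliers were left out, and the deposited intensities of the other spots were averaged per probe. Each array was then scaled to a common 75th percentile, and log2 values were taken. Accessions were matched to RefSeq symbols (94.3% of 28390). The 28896 probes that both arrays of some nucleus read well above background were fitted with limma 3.58.1 in R 4.3.3. The fit used lmFit and eBayes (4 residual and 3.02 prior degrees of freedom), with an F-test and 6 contrasts. P-values were adjusted by Benjamini-Hochberg over all of these probes, separately for the F-test and for each contrast, with a threshold of 0.05. The code was tested on simulated data. Intensities carry no read depth, and the number of arrays limits precision. Named were all called member probes with the other probes of their genes, the widest of each role, the partner genes called in the F-test (up to 10 by span) and markers; other members were named after their values were seen, and a few members are counted but not reported by name here. Members and lists were chosen with earlier results of these data known. Promoter sequences are from RefSeq (GRCm38.p6); 57 of the 72 genes had a window. Of the other lists, in LH against Arc, genes called higher and lower were 0 and 5 of 5 tested for Arc markers. They were 1 and 0 of 2 for VMH, 1 and 0 of 4 for DMH and 2 and 0 of 4 for the paraventricular nucleus. They were 1 and 0 of 4 for endothelium and 0 and 2 of 2 for anterior pituitary. Of these 2 pituitary genes 1 was Pomc, which is also an Arc marker. None was called for microglia, mural cells, oligodendrocyte precursors or other cation channels.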

Additional observations from a re-analysis of the deposited data

How the results depend on the processing

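No called difference of a named channel probe reversed under those of the 22 alternatives that gave it a value; partner and marker genes were not followed one by one. Of 54 called comparisons of 29 probes, 5 stayed past the threshold whichever array was left out (Scn4b, Scn1a probe A_55_P2138761, Scn7a, Asic4 probe A_55_P2185198 and Trpm6, each LH against Arc), and 16 under all of the other limma settings; fits of only the compared nuclei ended 28, no scaling 24, no filter 22, the replicate block 9, the other percentile 7, quantile normalization and normexp 4 each, and trended moderation and the floor for dim signals 2 each. Leaving out 1 array moved the member counts to 5 to 26 for the F-test, 9 to 33 for any pair, 1 to 19 for VMH against Arc, 0 to 5 for DMH against Arc, 5 to 18 for LH against Arc, 0 to 7 for DMH against VMH, 1 to 17 for LH against VMH, 0 to 4 for LH against DMH and 0 to 7 for probes set apart in 1 nucleus, and the partner count to 4 to 17. In such a fit the lone array is assumed to vary like the others.

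Without scaling, any pair gave 18, VMH against Arc 9, DMH against Arc 5, LH against Arc 9, DMH against VMH 3, LH against VMH 6, LH against DMH 1, set apart 2 and partners 7; the median of all probes then shifted by up to 0.46 (DMH against Arc). Without the filter on dim probes DMH against Arc gave 1, DMH against VMH 3, LH against VMH 7, LH against DMH 1 and set apart 3. Fits of only the compared nuclei gave 1 for DMH against Arc, 5 for LH against Arc, 2 for LH against VMH and 0 for LH against DMH. A percentile over probes detected on all arrays gave 1 for LH against DMH and 3 set apart; a floor for dim signals gave 4 for DMH against Arc; only probes above background on all 8 arrays gave 1 each for DMH against Arc and LH against DMH; quantile normalization gave 3 for DMH against VMH. With the methods' one-way analysis of variance and Tukey-Kramer, adjusted over probes, the F-test gave 2 member and 2 partner probes, and each pair, any pair and set apart gave 0. Unadjusted it gave 32 for the F-test, 12 for DMH against Arc, 8 for DMH against VMH, 7 for LH against DMH, 12 set apart and 21 partners, and 53 of the 54 called comparisons passed. The cause was not tested.

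The replicate numbers were also fitted as a block, although nothing in the labels pairs them and same-numbered arrays deviated together only weakly (r from -0.03 to 0.26). With the replicate block the F-test gave 17 member calls, any pair 25, partners 11, VMH against Arc 12, LH against Arc 18, DMH against VMH 4, LH against VMH 11, DMH against Arc 1, LH against DMH 1 and set apart 3. The 9 calls it ended were Cacna1c (LH against VMH), Cacna1i probe A_55_P2079076 (VMH against Arc), Cacna2d1 probe A_51_P498720 (DMH against VMH), Scn1a probe A_55_P2138761 (LH against DMH) and probe A_55_P2138769 (VMH against Arc), Scn7a (DMH against Arc), and Cacnb4, Cacng2 and Trpm3 (LH against Arc).

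Limits: 2 arrays per nucleus, mice not told apart by the labels, 1 spot for some probes, and signals near background for Scn7a, Scnn1a, Asic4 and Trpm6 in the nuclei where they were low.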
